A study of Populus x canadensis with 3 samples.

Results

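miR169 is a plant microRNA family whose best known targets are the NF-YA genes. These encode the DNA-contacting subunit of NF-Y, a trimeric transcription factor that binds CCAAT boxes in promoters. Its members here are the 44 distinct small RNA sequences whose name contains miR169, out of 472 distinct sequences listed for poplar roots, and they were chosen by name alone. They occupy 67 of 673 table entries, since 14 of the sequences have more than 1 entry, in most cases under the same name. The family had the most sequences of the 102 numbered families listed and the sixth largest read sum.

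The roots came from cuttings of the hybrid poplar Populus × euramericana "Neva", grown in water culture for 60 days and then given para-hydroxybenzoic acid (pHBA), a phenolic acid found in soil, for 3 days. The doses were 0, 2 and 4 mML-1 as labelled, a unit that probably means millimolar, and give the libraries their names, PHBA 0 (no acid), PHBA 2 and PHBA 4. Values given in threes follow this dose order. RNA of a treatment was mixed before sequencing, so each dose is 1 library from pooled plants and differences have no replicate check. All plants were rooted cuttings of 1 hybrid in nutrient solution, and the root label could not be checked against cell markers in a table of small RNAs. The listed sequences had 1434442, 542913 and 380800 reads across PHBA 0, 2 and 4. Values below are normalized reads, which the authors scaled by 1 constant per library. Folds and shares of the family carry a 95% interval in brackets, which covers counting error only.

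In plants a miRNA guides an Argonaute protein to transcripts that pair with it over nearly its whole length, and the transcript is often cut. A miRNA hairpin yields a strand from each arm, called 5p and 3p. In miR169 the strand that pairs with NF-YA transcripts is the 5p strand, and the 3p strand is usually its less abundant partner. In Arabidopsis the family is known to decline in nitrogen-starved plants and to affect root branching through NF-YA genes, and in Medicago a miR169 acts in root nodules. The comparison asks how the family stood in roots that received the acid.

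The 5 most abundant 5p sequences are shown first, because they hold most of the 5p reads, and then a shorter, rarer form of miR169ac. Capitals mark the seed, bases 2 to 8 from the 5′ end, and T stands for U as in the table.
ptc-miR169t_L+2R-2: cCGAGCCAagaatgacttgcc
ptc-miR169ac_R+2_1ss13AG: tAGCCAAGgacggcttgcccacc
ptc-miR169u-5p_1ss16TA: tAGCCAAGgacgactagccta
ptc-miR169n-5p_R+1: tGAGCCAAggatgacttgccgc
ptc-miR169q_R+1: tAGCCAAGgacgacttgcctgt
ptc-miR169ac_L-1: aGCCAAGGacgacttgccca
In these names ptc stands for Populus trichocarpa, L and R give bases gained or lost at the 5′ and 3′ ends relative to the registered miRNA, and ss marks a substitution. The second sequence carries A13G, counted from its 5′ end, meaning that the registered sequence has A there and the listed one has G. The 3p strands that hold most of the other reads follow, also with the seed in capitals.
ptc-miR169n-3p: gCAAGCATccttggttctcc
ptc-MIR169ae-p3: tGGGCAAGcaccttggctagc
ptc-MIR169d-p3: gGCGGGTTgtccttggctata
ptc-MIR169l-p3_1ss19GC: gGCAGTCTccttggctaacc
ptc-miR169u-3p_R-1: gGCAGTCTcctttggctatc
A capital MIR with p3 or p5 marks a strand predicted from a registered hairpin.

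Most of the sequences share a core. Their names are given relative to registered miR169 sequences, so a choice by name largely brings the core with it. The counts below describe the members and are not separate support for the name. The letters AGCCAA stood in 18 members and their reverse complement TTGGCT in 16, so that 34 of 44 held one of the pair as written, without overlap. Either motif was also held by 2 of the 428 other listed sequences, or 0.467%. In 3p members TTGGCT began at base 11 to 14. In the most abundant member, ptc-miR169n-3p, the closest stretch differed from it by 1 base. With that member and ptc-miR169y_1ss14AT counted, 36 members had a core within 1 mismatch. The other 8 members had at least 2 mismatches to both motifs, and their names come mostly from other species.

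Names gave the 5p arm for 8 members, the 3p arm for 20 and both arms for 1 sequence. The 15 members without an arm in the name were placed with 5p, since AGCCAA or a stretch with 1 mismatch lay within their first 10 bases. This gave 23 members for 5p and 20 for 3p. The 44 sequences had 25 different seeds. The seed AGCCAAG, the usual one of 5p strands, was shared by 13 members. On the 3p side the commonest seed was GCAGTCT, with 5 members. A 5′ end moved by 1 or 2 bases was enough to give a different seed, as in ptc-miR169ac_L-1 and ptc-miR169t_L+2R-2. Members that differ by a base or an end can share reads, so that values of close relatives are uncertain.

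The family held 2.61% of listed reads (Wilson 95% interval 2.59 to 2.64), 2.62% (2.58 to 2.67) and 4.05% (3.99 to 4.11) across PHBA 0, 2 and 4. As normalized reads its sum was 18687, 18425 and 23121. Bulk RNA cannot tell fewer cells of a type from less RNA per cell, here or in the values that follow. The sum was 1.01-fold lower in PHBA 2 than in PHBA 0 (0.99 to 1.03), an interval that includes equality. It was 1.24-fold higher in PHBA 4 than in PHBA 0 (1.21 to 1.26). In PHBA 4 it was also 1.25-fold higher than in PHBA 2 (1.23 to 1.28). Scaled to equal library totals, the log2 difference between PHBA 4 and PHBA 0 was 0.63, against 0.31 as deposited, so the direction held and the size depends on the scaling.

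Both strands were highest in PHBA 4. The summed 3p strands stood at 7839, 7442 and 10851 normalized reads over the doses, 1.38-fold higher in PHBA 4 than in PHBA 0 (1.35 to 1.42). The summed 5p strands stood at 10848, 10978 and 12247, 1.13-fold higher in PHBA 4 (1.10 to 1.16). Without ptc-miR169ac_R+2_1ss13AG, which was lower at that dose, the 5p sum was 1.43-fold higher (1.39 to 1.47). Without ptc-miR169n-3p the 3p sum was 1859, 2548 and 2921, 1.57-fold higher in PHBA 4 than in PHBA 0 (1.49 to 1.66) and 1.37-fold higher in PHBA 2 than in PHBA 0 (1.30 to 1.45). Most of that PHBA 2 difference lay in 1 sequence, ptc-MIR169ae-p3, which stood at 696, 1338 and 1339. The 3p strands thus made up 42.0%, 40.4% and 46.9% of family reads across PHBA 0, 2 and 4.

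The family was dominated by 3 sequences, which held 80.3% (79.9 to 80.7), 77.3% (76.6 to 78.0) and 74.6% (73.9 to 75.3) of its reads across PHBA 0, 2 and 4. The first, ptc-miR169n-3p, had 5980.0, 4894 and 7930.5 normalized reads across PHBA 0, 2 and 4. It was 1.22-fold lower in PHBA 2 (1.18 to 1.27) and 1.33-fold higher in PHBA 4 (1.28 to 1.37) than in PHBA 0. The second, ptc-miR169t_L+2R-2, is a 5p sequence that starts 2 bases before the registered end. It stood at 5286, 5711 and 7201, so that it was 1.36-fold higher in PHBA 4 than in PHBA 0 (1.32 to 1.41).

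The third, ptc-miR169ac_R+2_1ss13AG, went the other way. It is the one member of 23 nt, and it had 3746, 3641 and 2113 normalized reads across PHBA 0, 2 and 4. It has 2 entries and was counted once, so its rank and share are uncertain if reads were divided between them. In PHBA 4 it was 1.77-fold lower than in PHBA 0 (1.67 to 1.88) and 1.72-fold lower than in PHBA 2 (1.62 to 1.84). With equal library totals its log2 difference between PHBA 4 and PHBA 0 was -0.50, against -0.83 as deposited. Its share of the family was 9.14% in PHBA 4, against 20.0% in PHBA 0. Without it the family sum was 1.41-fold higher in PHBA 4 than in PHBA 0 (1.38 to 1.43). The 41 members other than these 3 summed to 3675, 4179 and 5876 normalized reads, 1.60-fold higher in PHBA 4 than in PHBA 0 (1.54 to 1.66).

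**Figure D1:**
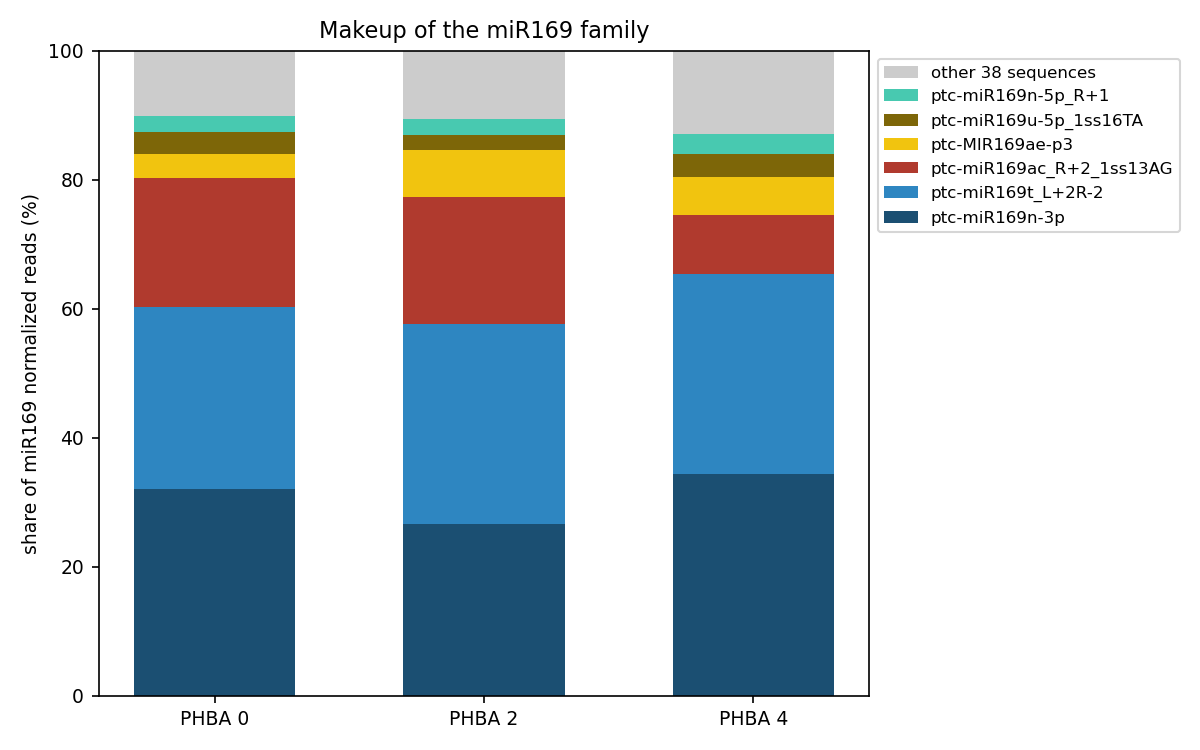
Share of miR169 normalized reads (%) held by the 6 most abundant sequences and by the other 38, in 1 library per dose. The red block, ptc-miR169ac_R+2_1ss13AG, is 20.0%, 19.8% and 9.14% across PHBA 0, 2 and 4, while ptc-miR169n-3p and ptc-miR169t_L+2R-2 fill most of the rest.

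An average of 10 normalized reads or more over the 3 libraries was asked before members were compared one by one, and 26 of 44 members reached it. They held 99.6%, 99.8% and 99.4% of family reads across PHBA 0, 2 and 4. Of these 26, 21 had their highest value in PHBA 4, or 80.8%, while 41.9% of all 289 compared sequences did. With equal library totals these shares were 92.3% and 51.6%. The highest value was in PHBA 0 for 3 members and in PHBA 2 for 2, with 36.7% and 21.5% of all. Values were higher at each dose step in 10 members, lower at each step in 2 and lowest in PHBA 2 in 12, with 24.9%, 26.6% and 26.3% of all.

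**Figure D2:**
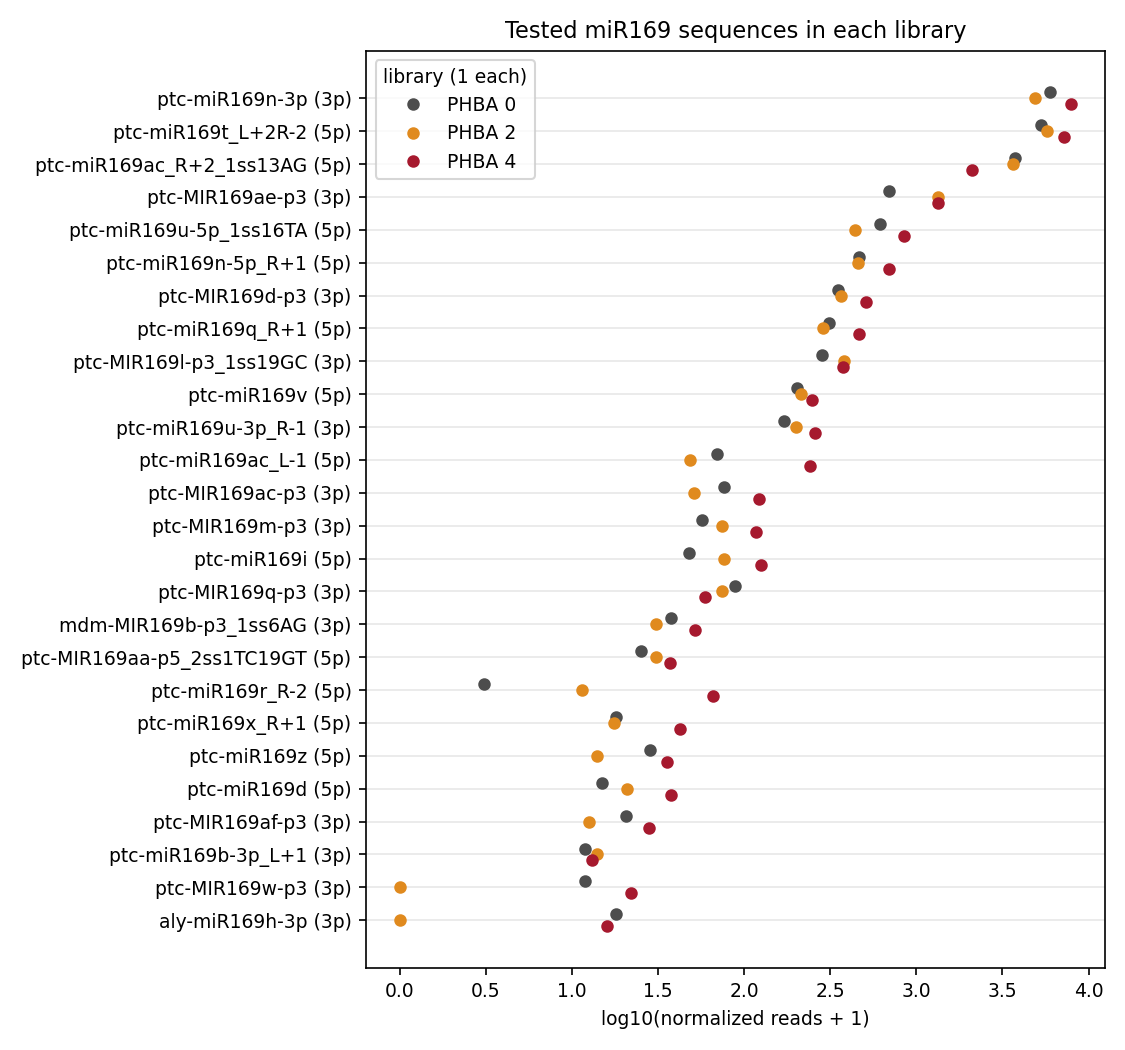
Normalized reads of the 26 compared miR169 sequences, as log10(value + 1), with 1 point per library and the strand in brackets. For 21 of 26 the PHBA 4 point is farthest right, ptc-miR169r_R-2 spans 2.10 to 65.4, and 2 sequences are listed at 0 in PHBA 2.

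In PHBA 4, 23 of the 26 members stood above PHBA 0 and 3 below, while of all 289 compared sequences 50.5% stood above and 49.1% below. The counting interval lay above a ratio of 1 for 17 members and below it for 2. Across all compared sequences these shares were 37.4% above and 37.7% below. At least 2-fold higher values, as log2 of (PHBA 4 + 1) over (PHBA 0 + 1), were seen in 6 of 26 members, close to the 23.9% of all compared sequences. They were ptc-miR169ac_L-1, ptc-MIR169m-p3, ptc-miR169i, ptc-miR169r_R-2, ptc-miR169x_R+1 and ptc-miR169d. None was at least 2-fold lower, while 21.1% of all compared sequences were, so that 45% of all passed 2-fold in either direction. The median log2 difference was 0.54 over the members and 0.01 over all compared sequences. Most members were thus higher by modest amounts. Because close relatives can share reads, the 26 members are not all separate measurements, and these counts can repeat 1 difference.

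In PHBA 2, 12 members stood above PHBA 0 and 14 below, with 46.4% and 52.9% of all compared sequences. At least 2-fold higher was 1 of 26, with 16.3% of all compared sequences, and at least 2-fold lower were 3 of 26, with 9.69% of all and 26% in either direction. The higher one was ptc-miR169r_R-2, and the lower ones were ptc-miR169z and 2 sequences listed at 0 in PHBA 2. The counting interval was above 1 for 5 members and below 1 for 6, with 30.1% and 30.4% of all. The 6 include the 2 sequences listed at 0. The median was -0.04, and -0.03 over all. Between the doses, 8 of 26 members were at least 2-fold higher in PHBA 4 than in PHBA 2, with 17.3% of all, and 0 were lower, with 16.3% of all and 33.6% in either direction. Of these 8, 2 were the sequences listed at 0 in PHBA 2. Among those above 0 in both libraries, the counting interval excluded 1 for 5. These were ptc-miR169ac_L-1, ptc-MIR169ac-p3, ptc-miR169r_R-2, ptc-miR169x_R+1 and ptc-miR169z. Any higher value was seen in 22 members and any lower one in 4, with 51.9% and 48.1% of all. The interval lay above 1 for 16 members and below it for 1, with 34.3% and 31.8% of all. The 16 include the 2 sequences listed at 0 in PHBA 2. The 3 comparisons share libraries and are not independent.

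**Figure D3:**
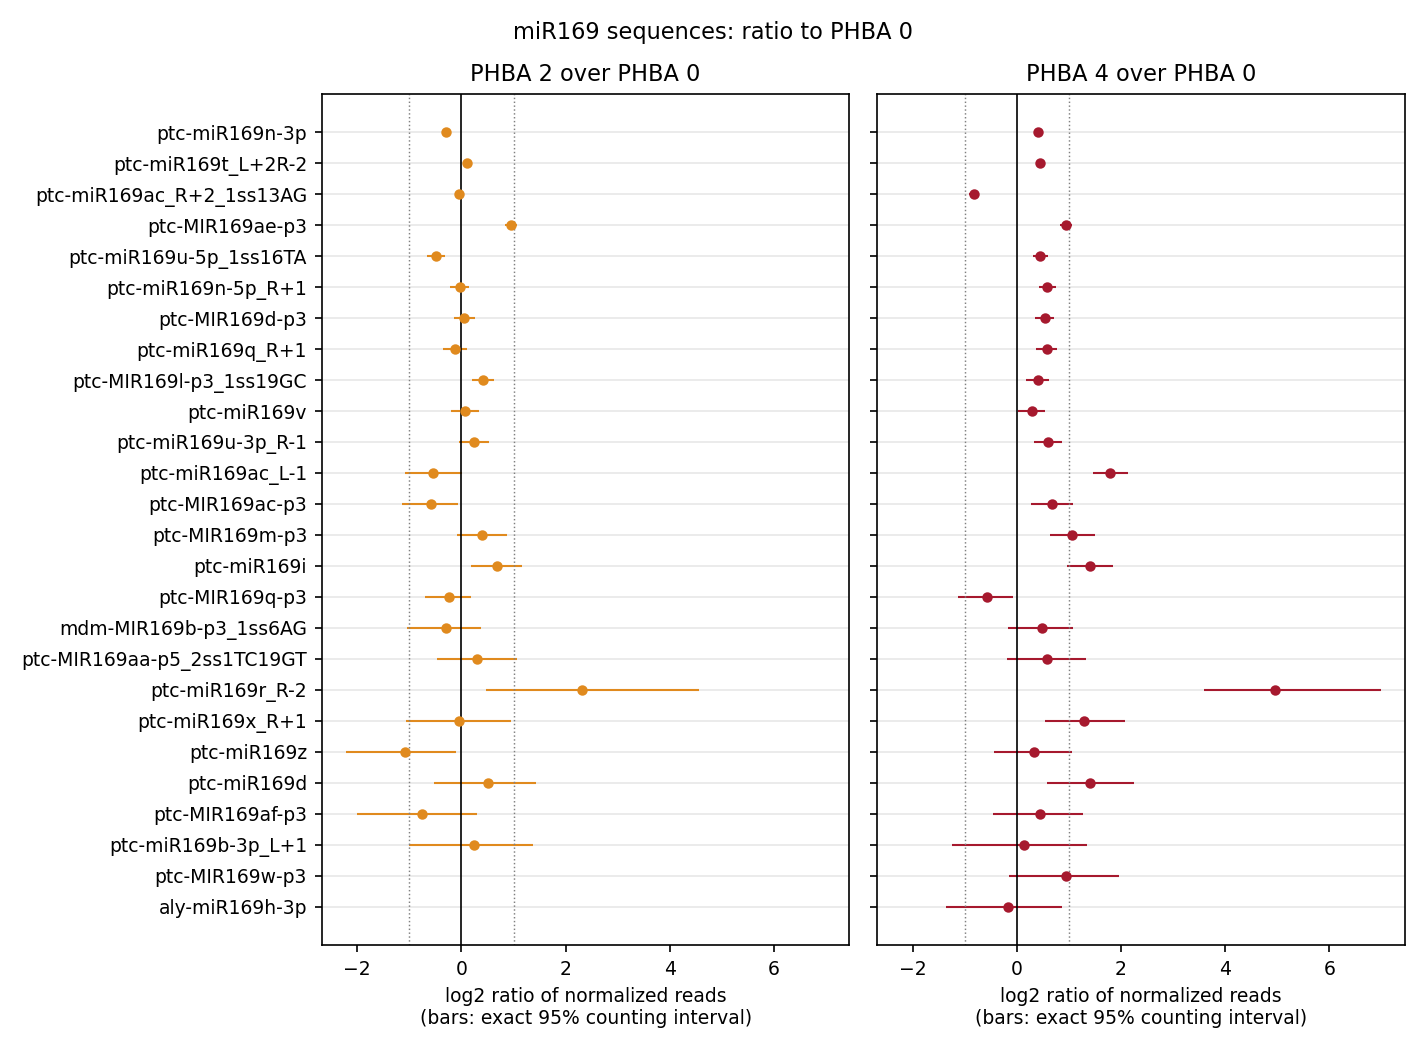
Log2 ratio of normalized reads to PHBA 0 for the 26 compared sequences, PHBA 2 on the left and PHBA 4 on the right, with exact 95% counting intervals and dotted lines at 2-fold. Points scatter around 0 on the left, with the 2 sequences listed at 0 in PHBA 2 left out, and all but 3 lie right of 0 on the right.

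Among the abundant 5p strands, most were alike in direction. ptc-miR169u-5p_1ss16TA had 615, 437 and 842 normalized reads over the doses. It was 1.41-fold lower in PHBA 2 than in PHBA 0 (1.25 to 1.59) and 1.37-fold higher in PHBA 4 than in PHBA 0 (1.24 to 1.52). ptc-miR169n-5p_R+1 had 465, 455 and 697, or 1.50-fold more in PHBA 4 than in PHBA 0 (1.34 to 1.67). For ptc-miR169q_R+1 the values were 310.1, 285 and 463, with PHBA 4 1.49-fold higher than PHBA 0 (1.30 to 1.71). These strands were level or lower in PHBA 2 and higher in PHBA 4.

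Several less abundant 5p strands differed more. ptc-miR169ac_L-1, which lacks the first base of the registered miR169ac, stood at 69.0, 47.4 and 239. Its PHBA 4 value was 3.46-fold that of PHBA 0 (2.74 to 4.39) and 5.04-fold that of PHBA 2 (3.47 to 7.34). ptc-miR169i, which has 5 entries, stood at 46.9, 75.2 and 124, and was 2.65-fold higher in PHBA 4 than in PHBA 0 (1.95 to 3.61). ptc-miR169d, which has 6 entries, had 14.0, 19.9 and 36.8, with PHBA 4 2.63-fold above PHBA 0 (1.50 to 4.78). These 3 were highest in PHBA 4, and ptc-miR169i and ptc-miR169d were higher at each dose step.

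ptc-miR169x_R+1 had 16.9, 16.4 and 41.5 normalized reads, 2.45-fold more in PHBA 4 than in PHBA 0 (1.45 to 4.21). ptc-miR169z stood at 27.4, 12.9 and 34.5. It was 2.12-fold lower in PHBA 2 than in PHBA 0 (1.07 to 4.67), on 10 reads, while its PHBA 4 value was 1.26-fold that of PHBA 0 (0.74 to 2.08). Both were lowest in PHBA 2 and highest in PHBA 4.

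Among the compared members above 0 in all 3 libraries, the largest ratio belonged to ptc-miR169r_R-2, a 19 nt sequence cut by 2 bases at the 3′ end. It stood at 2.10, 10.5 and 65.4 normalized reads, from 4.21, 8.09 and 43.6 expected reads, and was 31.2-fold higher in PHBA 4 than in PHBA 0 (12.0 to 127). Its letters are contained whole in 4 longer members, 2 of them poplar sequences, so that it cannot be assigned to 1 hairpin. The 2 longer poplar sequences that contain it follow it here, and then a second long and short form, with seeds in capitals.
ptc-miR169r_R-2: tAGCCAAGgatgacttgcc
ptc-miR169i: tAGCCAAGgatgacttgcctg
ptc-miR169v: tAGCCAAGgatgacttgccca
ptc-miR169d: cAGCCAAGgatgacttgccgg
ptc-miR169a_R-3: cAGCCAAGgatgacttgc
Of the reads on ptc-miR169r_R-2, ptc-miR169i and ptc-miR169v together, the short form held 0.833% (0.308 to 2.02), 3.49% (1.76 to 6.66) and 15.0% (11.5 to 19.7) across PHBA 0, 2 and 4. Likewise ptc-miR169a_R-3, of 18 nt and contained in ptc-miR169d, held 18.9%, 17.3% and 34.7% of the reads of that pair, with intervals that overlap. Entries number 1, 5 and 2 for ptc-miR169r_R-2, ptc-miR169i and ptc-miR169v, and 3 and 6 for ptc-miR169a_R-3 and ptc-miR169d. Each sequence was counted once, and reads may have been divided between entries, so the size of these shares is uncertain.

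Short sequences of the whole table were also more abundant in PHBA 4. Outside the miR169 family, 18 and 19 nt sequences held 0.324%, 0.673% and 3.70% of reads across PHBA 0, 2 and 4. Within the family they held 0.485% (0.420 to 0.561), 0.546% (0.439 to 0.683) and 1.29% (1.12 to 1.47), and their sum was 3.28-fold higher in PHBA 4 than in PHBA 0 (2.66 to 4.03). Annotations doubted as tRNA or rRNA fragments, which are miR6300, miR5368 and miR6478 here, held 0.676%, 2.08% and 3.97% of all listed reads. Of their 25 compared sequences 20 were at least 2-fold higher in PHBA 4 than in PHBA 0 and 0 lower. Over all compared sequences 23.9% were higher by this rule and 21.1% lower. The part of these short reads in the values of ptc-miR169r_R-2 and ptc-miR169a_R-3 was not tested. Without its 18 and 19 nt members the family sum had a log2 difference between PHBA 4 and PHBA 0 of 0.30, against 0.31 with them.

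The 2 sequences of the 5p strand of miR169ac show how values under 1 name can part. They differ inside as well as in length. Only the 23 nt form carries A13G, so the 20 nt form is not contained in it. Each has 2 entries, and whether both come from 1 hairpin was not tested. In PHBA 4 the 23 nt form was lower than in PHBA 0 and the 20 nt form higher. The 20 nt form held 1.81% (1.53 to 2.13), 1.29% (0.943 to 1.78) and 10.2% (8.74 to 11.7) of their joint reads across PHBA 0, 2 and 4. Such shares within a library do not depend on the constant used to scale it.

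**Figure D4:**
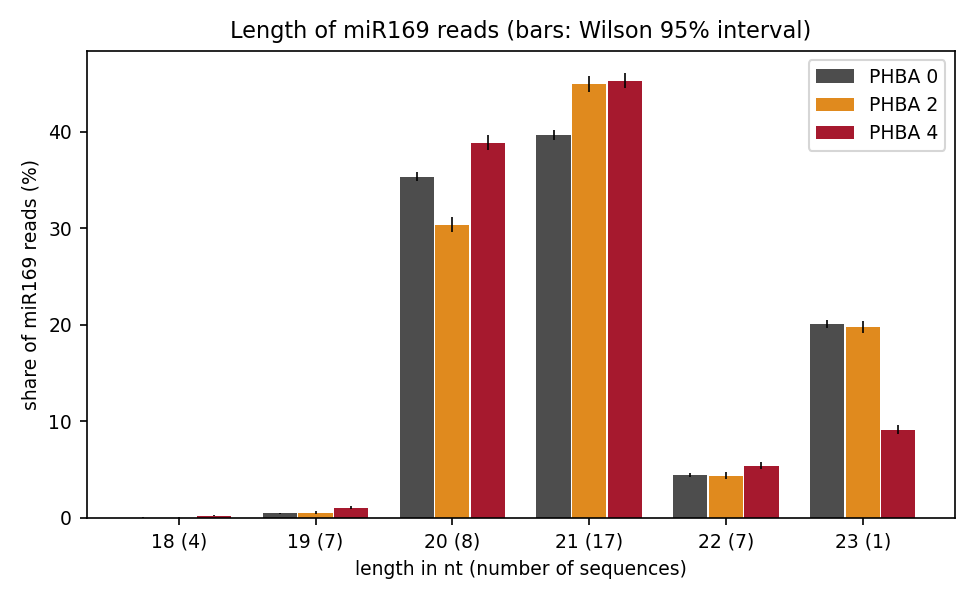
Share of miR169 reads (%) by sequence length in nt, with the number of sequences of that length in brackets, 1 bar per library and Wilson 95% intervals. Sequences of 20 and 21 nt lead in each library, and the single 23 nt sequence is at 9.14% in PHBA 4 and near 20.0% in the other libraries.

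By length, 21 nt members held 39.6%, 44.9% and 45.3% of family reads across PHBA 0, 2 and 4. Those of 20 nt held 35.3%, 30.4% and 38.9%, and those of 22 nt 4.48%, 4.37% and 5.41%. In sum the 22 nt members were 1.50-fold higher in PHBA 4 than in PHBA 0 (1.38 to 1.63) and the 21 nt members 1.41-fold higher (1.37 to 1.45).

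The 5p strands were also grouped by the 10 letters that start at AGCCAA, which shows where the family differs inside the stretch that pairs with NF-YA. AGCCAAGAAT stood in 3 members led by ptc-miR169t_L+2R-2, which summed to 5337, 5754 and 7272 normalized reads. The group was 1.36-fold higher in PHBA 4 than in PHBA 0 (1.32 to 1.41). AGCCAAGGAT stood in 10 members, at 764, 802 and 1251 in sum, or 1.64-fold higher in PHBA 4 (1.50 to 1.78). AGCCAAGGAC stood in 4 members, at 4741, 4410.0 and 3657, or 1.30-fold lower in PHBA 4 (1.24 to 1.36). That last group holds ptc-miR169ac_R+2_1ss13AG, and its log2 difference was -0.05 with equal library totals, against -0.37 as deposited. Its other 3 members, ptc-miR169u-5p_1ss16TA, ptc-miR169q_R+1 and ptc-miR169ac_L-1, were each higher in PHBA 4.

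By seed, the 13 sequences with AGCCAAG summed to 4989.7, 4722 and 4013 normalized reads, 1.24-fold lower in PHBA 4 than in PHBA 0 (1.19 to 1.30). This direction rests on ptc-miR169ac_R+2_1ss13AG, and with equal library totals the log2 difference was 0.01. The 2 sequences with CGAGCCA summed to 5310.0, 5741 and 7237, 1.36-fold higher in PHBA 4 (1.32 to 1.41). Those with GAGCCAA summed to 474, 455 and 704, 1.49-fold higher (1.33 to 1.66).

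Among 3p strands, ptc-MIR169ae-p3 differed from PHBA 0 at both doses. It had 696, 1338 and 1339 normalized reads across PHBA 0, 2 and 4, so that each dose was 1.92-fold above PHBA 0 (1.77 to 2.09 for both). Its PHBA 4 to PHBA 2 ratio was 1.00 (0.91 to 1.10). It shares 20 of its 21 letters with ptc-MIR169af-p3, which starts 1 base earlier in the common run and stood at 19.7, 11.6 and 27.0. That rarer sequence was 2.32-fold higher in PHBA 4 than in PHBA 2, with a counting interval (0.99 to 5.86) that includes 1.

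The other abundant 3p strands were higher in PHBA 4 by similar amounts. ptc-MIR169d-p3 stood at 349.9, 364 and 507, 1.45-fold higher in PHBA 4 than in PHBA 0 (1.27 to 1.65). ptc-MIR169l-p3_1ss19GC, whose letters also stand under the names miR169i and miR169j, had 283, 378 and 375 and was 1.33-fold higher in PHBA 4 (1.14 to 1.54). It was already 1.34-fold higher in PHBA 2 (1.15 to 1.54). For ptc-miR169u-3p_R-1 the values were 168, 199 and 256, or 1.52-fold more in PHBA 4 than in PHBA 0 (1.26 to 1.84).

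Of the rarer 3p strands, ptc-MIR169m-p3 stood at 55.8, 73.7 and 117, 2.10-fold higher in PHBA 4 than in PHBA 0 (1.55 to 2.82). ptc-MIR169ac-p3 had 75.5, 50.4 and 121. It was 2.41-fold higher in PHBA 4 than in PHBA 2 (1.63 to 3.63) and 1.61-fold higher than in PHBA 0 (1.21 to 2.11). ptc-MIR169m-p3 was higher at each dose step, whereas ptc-MIR169ac-p3 was lowest in PHBA 2.

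A pair of rare 3p sequences was listed at 0 in PHBA 2. They are shown because they are close to more abundant 3p strands: aly-miR169h-3p shares a run of 18 letters with ptc-MIR169ac-p3 and of 17 with ptc-MIR169l-p3_1ss19GC.
ptc-MIR169w-p3: gGCAGTCAccttggctatg
aly-miR169h-3p: gGCAGTCTccttggctatt
ptc-MIR169w-p3 had 11.0 normalized reads in PHBA 0 and 21.0 in PHBA 4, from 22 and 14 reads. aly-miR169h-3p, named for Arabidopsis lyrata, had 16.9 and 15.0 there, from 34 and 10 reads. Both were present at the lowest and highest dose but not listed above 0 in PHBA 2, and no fold is given against 0. In PHBA 4 their ratios to PHBA 0 were 1.91 (0.91 to 3.91) for ptc-MIR169w-p3 and 0.89 (0.39 to 1.83) for aly-miR169h-3p, both with intervals that include 1. With equal library totals the log2 difference of aly-miR169h-3p turned to 0.14, against -0.17 as deposited.

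The remaining 5 compared members had means between 12.0 and 221 normalized reads and log2 differences between PHBA 4 and PHBA 0 from -0.57 to 0.56. The lowest of these is ptc-MIR169q-p3, at 87.5, 73.7 and 58.5, which was 1.50-fold lower in PHBA 4 than in PHBA 0 (1.06 to 2.18). The most abundant is ptc-miR169v, at 203, 214 and 247. The 18 members below the minimum had means of 1.08 to 9.81 and at most 24.7 normalized reads in any library. The number above 0 was 11, 8 and 12 across PHBA 0, 2 and 4, and 4 were above 0 in all 3. The 18 summed to 69.3, 44.5 and 149 normalized reads.

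Both strands were listed for 8 poplar hairpin names. The strands of miR169n are shown with capitals for the longest run of letters, 9 bases, that pairs between them by Watson-Crick rules.
ptc-miR169n-5p_R+1: tgagCCAAGGATGacttgccgc
ptc-miR169n-3p: gcaagCATCCTTGGttctcc
Such runs were 7 to 10 bases in the pairs of n, ac, u, d, i, q and x, and 4 bases in miR169aa. For miR169n the 3p strand led, with 92.8% (92.3 to 93.2), 91.5% (90.6 to 92.3) and 91.9% (91.2 to 92.6) of the reads of both strands across PHBA 0, 2 and 4. The 3p strand also led for miR169d and miR169i, while the 5p strand led for miR169u, miR169q and the 23 nt form of miR169ac. The 5p sequences of miR169d and miR169i have 6 and 5 entries and their 3p sequences 1 and 3, so their reads may come from different numbers of hairpins. The same holds for miR169ac, where each 5p form has 2 entries and the 3p sequence 1.

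In several pairs the balance of strands differed between libraries. For miR169q the 3p share was 22.0% (19.3 to 25.1), 20.5% (16.2 to 25.6) and 11.2% (8.31 to 15.0) across PHBA 0, 2 and 4. Its 5p strand was higher in PHBA 4 than in PHBA 0 and its 3p strand lower. For miR169i the 3p share was 85.8% (82.9 to 88.3), 83.4% (78.9 to 86.7) and 75.2% (70.2 to 79.4). For miR169u it was 21.5% (19.5 to 23.6), 31.3% (27.4 to 35.5) and 23.3% (20.4 to 26.6), so here PHBA 2 stands apart. Against the 23 nt 5p form of miR169ac it was 1.98% (1.69 to 2.32), 1.37% (1.00 to 1.86) and 5.44% (4.40 to 6.71). Against the 20 nt 5p form the same 3p strand held 52.3% (46.7 to 58.1), 51.5% (40.3 to 62.2) and 33.7% (28.1 to 39.9), so that its share in PHBA 4 was higher beside one form and lower beside the other than in PHBA 0.

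**Figure D5:**
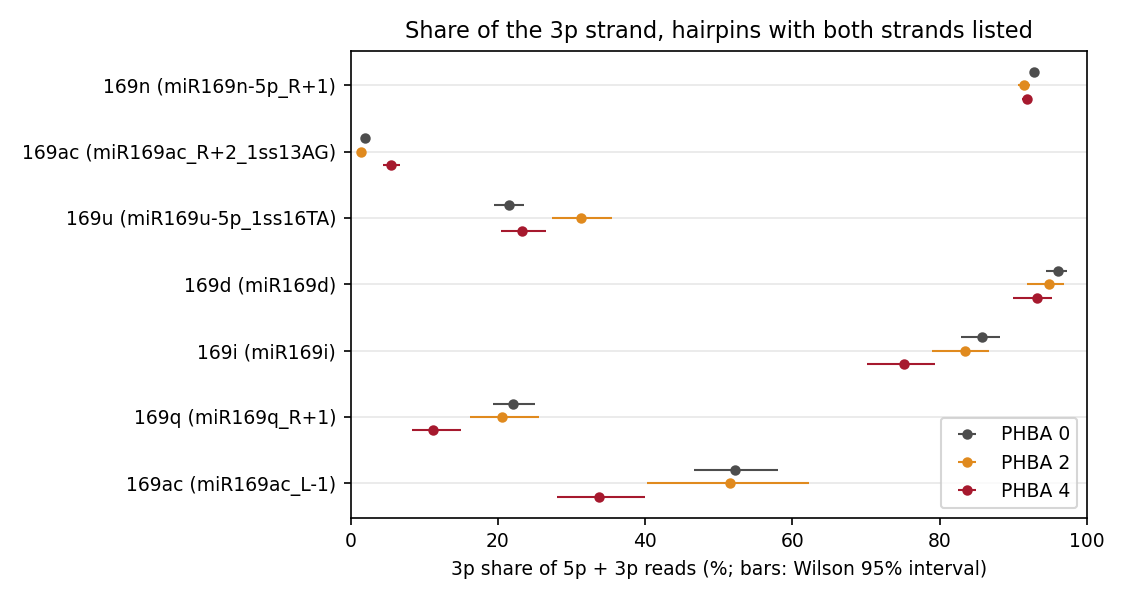
Share of 3p reads among 5p and 3p reads (%) for hairpin names that averaged 100 normalized reads or more over both strands, 1 point per library with Wilson 95% intervals. The 3p share of miR169q is 11.2% in PHBA 4 against 22.0% in PHBA 0, miR169n stays between 91.5% and 92.8%, and miR169ac is shown once for each of its 5p forms with the same 3p strand.

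Of the 8 members without the core, the most abundant was mdm-MIR169b-p3_1ss6AG, named for apple, at 36.6, 29.7 and 51.0 normalized reads. The letters of 4 of the 8 are shown because they go against the family name.
mdm-MIR169b-p3_1ss6AG: tGACAGGCtcttctctctcatg
mdm-MIR169b-p5_1ss6AG: tGACAGGCtcttctctctca
ppe-MIR169i-p3_2ss16GT19TA: tTCTCTTCtttctttttta
gma-MIR169e-p5_2ss16AT20CA: tGAAGAGGtagagagtgtgatt
The apple pair is named for opposite arms, yet the second is contained in the first, and the ppe sequence, named for peach, stands under names of both arms. The gma sequence is named for soybean. Together the 8 held 0.237%, 0.274% and 0.506% of family reads across PHBA 0, 2 and 4, and without them the log2 difference of the family sum between PHBA 4 and PHBA 0 was 0.30.

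Other families were counted by the same rule. Over all compared sequences, 23.9% were at least 2-fold higher in PHBA 4 than in PHBA 0 and 21.1% lower. For PHBA 2 against PHBA 0 these shares were 16.3% and 9.69%. Among the other meristem and organ development families listed, miR164, miR166, miR171 and miR396, 2 of 40 compared sequences were at least 2-fold higher in PHBA 4 than in PHBA 0 and 15 lower, with a median log2 difference of -0.62. Their sum was 1.75-fold lower in PHBA 4 than in PHBA 0, at 42138 and 73794 normalized reads. By family it was 1.99-fold lower for miR164, 1.71-fold for miR166, 2.00-fold for miR396 and 1.15-fold for miR171. With equal library totals the log2 differences were -0.67, -0.45, -0.67 and 0.12 in that order, so miR171 turned higher. In PHBA 2, 0 of 40 were higher than in PHBA 0 and 5 lower. Among nutrient-responsive families, such as miR398, miR408 and miR827, 2 of 11 were higher in PHBA 4 and 2 lower, with a median of 0.02, and in PHBA 2 4 were higher and 0 lower. The median of the miR169 members, 0.54, lay above both, and no test of these differences was possible with 1 library per dose.

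Of the 51 other families whose sum averaged 100 normalized reads or more, 3 were nearest to miR169 in their pattern over the 3 libraries, measured as the distance of centred log2 sums. They were miR477 at a distance of 0.075, with 7133, 6703 and 9045 normalized reads, miR473 at 0.16, with 3694, 3928 and 5353, and miR160 at 0.18, with 2526, 2115 and 2726. The likeness rests on 3 libraries and describes levels only.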

How the data were processed

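Small RNA libraries were made from pooled root RNA, 1 per dose, and samples were grouped by the dose in their titles. The submitters' processing notes name bcl2fastq 1.8.4. The sources used here do not name a mapping or counting tool, a miRNA database or a genome build, and no genome positions are reported. The authors deposited an expected count for each entry, which need not be whole, and a normalized signal, which is that count times 0.498 in PHBA 0, 1.29 in PHBA 2 and 1.50 in PHBA 4. No source used here says how these constants were chosen.

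Each sequence was counted once, although reads may have been divided between its entries. The 289 sequences that averaged 10 normalized reads or more were compared on the log2(value + 1) scale, where the pseudocount of 1 makes differences of low values smaller. Folds in the text are plain ratios with exact conditional binomial 95% intervals from the expected counts, rounded. Shares have Wilson 95% intervals. Both cover only the error of counting, since no molecular identifiers are named and PCR copies cannot be told from molecules. The family had 37487, 14250 and 15414 reads across PHBA 0, 2 and 4, so PHBA 2 and PHBA 4 are less precise than PHBA 0. With 1 library per dose there was no test.

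Members given with full values are the 5 most abundant of each strand, those at least 2-fold different in a comparison, and ptc-miR169n-3p, ptc-MIR169w-p3 and aly-miR169h-3p, which makes 21. The members, lists and this rule were chosen with earlier results of these data known. Calculations used Python 3.11.15, pandas 2.3.3 and scipy 1.17.1, and calls and intervals were tested on simulated counts. The simulation scored whole counts of the more abundant sequences, with changes larger than 2-fold, so it does not cover rare members or divided reads.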

Additional observations from a re-analysis of the deposited data

How the results depend on the processing

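No paired analysis was possible because each dose is 1 library, and no replicate could be left out. The family sum kept its direction for PHBA 4 under each alternative, and for PHBA 2 against PHBA 0 it stayed between -0.02 and 0.09, turning to 0.01 with equal totals. For PHBA 4 against PHBA 0 the log2 difference was 0.31 as deposited, 0.63 with equal totals, 0.27 with median-of-ratios factors, 0.21 with every entry counted, 0.26 without the most abundant member and 0.49 without ptc-miR169ac_R+2_1ss13AG. For PHBA 4 against PHBA 2 it was 0.33, and under the same alternatives 0.63, 0.28, 0.21, 0.17 and 0.51. For PHBA 2 against PHBA 0 it was -0.02, and without the most abundant member it was 0.091. With equal totals the median of all compared sequences was 0.33 for PHBA 4 against PHBA 0, against 0.01 as deposited, and that of the members 0.87, against 0.54. The split for PHBA 2 against PHBA 0 was then 2 higher and 2 lower (16.5% and 8.93% of all sequences), against 1 higher and 3 lower as deposited (16.3% and 9.69%).

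Counts of members at least 2-fold different were 4 for PHBA 2 against PHBA 0, 6 for PHBA 4 against PHBA 0 and 8 for PHBA 4 against PHBA 2. With no minimum on the mean they were 16, 19 and 21 of 44 (40.5%, 58.1% and 44.1% of all sequences), and with a minimum mean of 100 they were 0, 1 and 1, from 12 members (21.7%, 37.1% and 18.2% of all). Counting every entry gave 16 of 41 entries for PHBA 4 against PHBA 0, all higher (24.8% of all entries were higher). Equal totals gave 13 of 27 for PHBA 4 against PHBA 2, all higher, while the share higher over all sequences was 24.4%, against 17.3% as deposited. Without 18 and 19 nt members the counts for PHBA 2 against PHBA 0 and for PHBA 4 against PHBA 2 were 1 and 5 (21.9% and 28.8% of all), and with values above 0 in both libraries the first was 2 (23.7% of all). Leaving out a member or sequences of a length or without the core, and requiring values above 0, were chosen after seeing the data, except for the most abundant member. Of the values of single members under other scalings and pseudocounts, 232 stayed inside their counting interval, 20 moved outside it, and 3 of all these turned their sign, each with an interval that included equality (aly-miR169h-3p for PHBA 4 against PHBA 0, and ptc-MIR169ae-p3 and ptc-MIR169l-p3_1ss19GC for PHBA 4 against PHBA 2). Low counts limit the rarer members: ptc-miR169z had 10 reads in PHBA 2 and an interval of 1.07 to 4.67 for that comparison with PHBA 0.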
